A study of Mus musculus with 7 samples.

Results

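Progress of a β-cell from G1 into S phase is set by the D cyclins, their kinase partners and the inhibitors that hold them back, and 10 such genes were described here in islets of pregnant mice. They were taken by name from the deposited gene table, ignoring case: the D cyclins CCND1, CCND2 and CCND3, the kinases CDK4 and CDK6, the CDK inhibitors CDKN1B, CDKN2A and CDKN2C, MEN1, and RB1. All 10 were present among 34082 gene names, and 9 of them, all but CDK6, had a mean of at least 0.5 TPM (a length-corrected unit in which each library has the same total) and were among the 14840 genes tested. They comprised 26 of the 107384 transcripts in the transcript table.

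Islets were isolated on day 15 of pregnancy from 7 mice and sequenced with 1 library per mouse. By the study's methods, isolated islets were kept overnight in culture medium with serum. In the 4 βPrlR+/- mice, 1 Prlr allele carried a floxed exon that was removed by a tamoxifen-inducible Cre under the Pdx1 promoter (Pdx1CreER), and tamoxifen was given before pregnancy. In the 3 Prlr+/- mice, 1 Prlr allele was missing from every cell of the body, and these mice received no tamoxifen and carried no Cre. Both groups were on a C57BL/6 background, both had been mated with wild type males, and their age was 3 to 4 months by the labels, where the methods of the study give an older age. Genotype, Cre and tamoxifen therefore changed together and cannot be told apart. The labels call the conditional deletion homozygous and the methods of the study call it heterozygous; the group names used here follow the study. The sample titles of the conditional group read CkoWt, and what the Wt in them stands for is not given in the sources used here. No group is labelled as wild type islets, so by the study's description each difference is one between mutants. In what follows a difference is always Prlr+/- minus βPrlR+/-.

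As background, D cyclins bind CDK4 or CDK6, and the active kinase phosphorylates the retinoblastoma protein, RB1, which then releases E2F factors that switch on S phase genes. INK4 proteins, among them the products of CDKN2A and CDKN2C, block CDK4 and CDK6 directly, whereas p27, the product of CDKN1B, blocks mainly cyclin E and CDK2. Menin, the product of MEN1, works with histone methyltransferases to keep CDKN1B and CDKN2C expressed, and in mouse islets it is known to fall in pregnancy under prolactin signalling, while β-cells multiply. Mouse β-cells are known to depend on CCND2 and CDK4.

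The tissue label was checked against marker lists. Insulin genes made up 46.1% to 58.9% of the TPM of a library. Summed acinar markers ranged from 3008 to 25835 scaled TPM in βPrlR+/- islets and from 8180 to 21239 in Prlr+/- islets, so exocrine RNA was present in both. Of the 9 lists, 2 did not overlap between the groups in their sums. The neuron and glia list, led by UCHL1, TUBB3 and STMN2 and with no gene at 0, was at 85.6 to 97.0 scaled TPM in βPrlR+/- islets against 61.3 to 67.1 (exact permutation p of its mean log2 value = 0.0286). The list of δ- and PP-cells, led by PPY, SST and PYY and with no gene at 0, was at 18155 to 21236 against 15725 to 17385 (exact permutation p of its mean log2 value = 0.0857). The part of these 2 lists in the results below was not tested. Among lists whose sums overlapped, the mean log2 difference was -0.22 for the endothelial list (exact permutation p = 0.0857) and -0.27 for the α-cell list (exact permutation p = 0.2). It was 0.31 for the β-cell list (exact permutation p = 0.114). In bulk islets, fewer cells of a type and less RNA per cell cannot be told apart. PRLR itself was at 55.7, 38.4, 47.3 and 38.8 scaled TPM in βPrlR+/- islets and at 36.1, 51.1 and 35.1 in Prlr+/- islets. The groups overlapped (log2 difference -0.15, SE 0.17, limma adjusted p = 1.0), and a sum over whole transcripts does not measure the removed exon, so it is no check of the labels.

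Both INK4 genes have 2 promoters, which bear on the transcript values given below, and their windows of 300 bases (250 before and 50 after the start, from RefSeq for GRCm38.p6, minus strand, printed 5′ to 3′) are shown with each CG dinucleotide in capitals. The genome build of the deposited values is not given in the sources used here. The upstream Cdkn2a window, at chr4:89294570-89294869, begins the transcript that encodes p19ARF, and the downstream one, at chr4:89282143-89282442, begins the transcript that encodes p16INK4a. The Cdkn2c window that matches NM_007671 lies at chr4:109665323-109665622, and the upstream one, at the end of the RefSeq gene, lies at chr4:109666707-109667006. The upstream window is tied to NM_001301368 only by elimination, since the GENCODE annotation starts that transcript outside it, at position 109667189.
Cdkn2a, p19ARF start: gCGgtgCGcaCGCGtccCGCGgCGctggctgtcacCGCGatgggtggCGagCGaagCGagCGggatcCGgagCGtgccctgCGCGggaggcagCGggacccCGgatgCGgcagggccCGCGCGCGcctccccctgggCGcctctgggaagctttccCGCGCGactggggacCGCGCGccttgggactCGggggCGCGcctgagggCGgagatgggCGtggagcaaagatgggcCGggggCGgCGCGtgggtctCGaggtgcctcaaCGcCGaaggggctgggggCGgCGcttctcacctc
Cdkn2a, p16INK4a start: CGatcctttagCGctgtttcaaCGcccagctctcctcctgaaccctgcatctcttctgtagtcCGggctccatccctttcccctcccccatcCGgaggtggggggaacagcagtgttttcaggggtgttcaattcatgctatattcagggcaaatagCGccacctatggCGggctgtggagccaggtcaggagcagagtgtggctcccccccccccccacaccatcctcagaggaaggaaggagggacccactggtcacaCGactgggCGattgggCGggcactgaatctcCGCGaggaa
Cdkn2c, NM_007671 start: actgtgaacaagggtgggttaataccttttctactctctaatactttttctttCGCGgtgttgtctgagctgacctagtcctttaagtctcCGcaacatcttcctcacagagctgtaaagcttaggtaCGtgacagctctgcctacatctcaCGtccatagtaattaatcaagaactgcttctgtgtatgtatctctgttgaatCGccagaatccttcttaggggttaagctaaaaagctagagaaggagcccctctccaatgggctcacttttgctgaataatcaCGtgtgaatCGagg
Cdkn2c, upstream RefSeq start: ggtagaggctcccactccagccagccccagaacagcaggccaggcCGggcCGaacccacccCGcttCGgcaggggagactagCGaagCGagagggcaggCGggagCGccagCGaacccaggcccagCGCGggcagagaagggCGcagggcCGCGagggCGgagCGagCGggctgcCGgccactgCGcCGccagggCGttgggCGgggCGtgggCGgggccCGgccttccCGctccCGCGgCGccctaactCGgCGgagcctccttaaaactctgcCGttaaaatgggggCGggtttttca
The motif counted was CG, which reads the same on both strands. The p19ARF window held 45 of them, and 1.93% of 32851 RefSeq promoter windows of this length held as many or more. Only 12 were found in the p16INK4a window, a count reached by 39.6% of windows. For Cdkn2c the upstream RefSeq window held 33, reached by 8.56%, and the NM_007671 window 8, reached by 48.6%. The median window held 7.

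Across the 7 mice the levels of the 10 genes, on the scaled TPM scale, spanned from 164 for CCND2 to 0.129 for CDK6. TPM is corrected for transcript length, so genes can be ranked. The order was CCND2, CDK4 (80.5), CCND1 (38.4), CDKN1B (29.8), MEN1 (20.3), CCND3 (18.2), RB1 (9.55), CDKN2C (9.01), CDKN2A (0.837) and CDK6. Within each mouse, 8 of the 9 neighbouring pairs stood in this order in all 7 mice (exact sign-flip test, two-sided p = 0.0156, the smallest the test can give, adjusted p = 0.0176). The exception was RB1 and CDKN2C, where RB1 was the higher in 4 of 7 mice (exact p = 0.469). Because the order was taken from the means of these same 7 mice, the test describes only how steady it was between them. MEN1 and CCND3 were close, with a ratio of 1.004 to 1.29, as were CCND1 and CDKN1B, at 1.03 to 1.66.

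**Figure D1:**
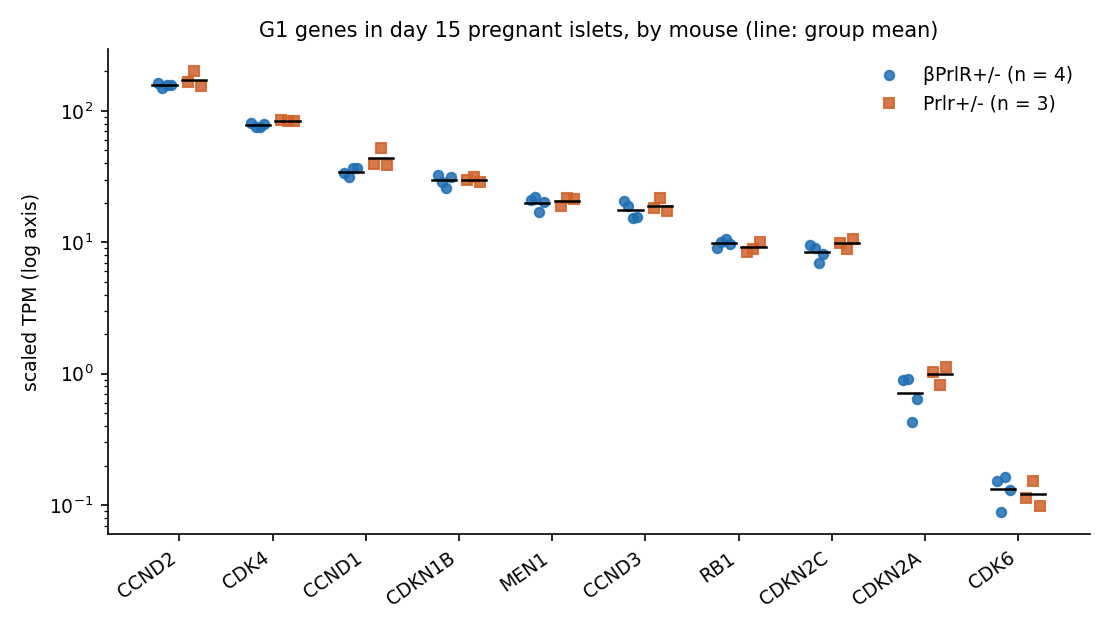
Scaled TPM (log axis) of the 10 genes in each mouse, with circles for the 4 βPrlR+/- mice, squares for the 3 Prlr+/- mice and lines for group means. Levels fall from CCND2 at a mean of 164 to CDK6 at 0.129 over the 7 mice, and the groups overlap for all genes but CCND1 and CDK4.

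Between the groups, none of the 9 genes tested passed the limma test after Benjamini-Hochberg adjustment over all genes, where 0.0674% of genes did. Only CCND1 passed at an unadjusted p under 0.05, higher in Prlr+/- mice, against 1.58% of all genes called in that direction and 4.52% in either. In 2 of the 9, CCND1 and CDK4, every Prlr+/- mouse lay above every βPrlR+/- mouse, as for 1.84% of all genes (4.95% did not overlap in either direction). The difference was above 0 for 8 of the 9 genes (all genes, 51.7%), with a median of 0.12 (all genes, 0.0042). With TPM as deposited, 3 of the 9 were above 0 and the median was -0.022, but that setting moved the median over all genes to -0.12. Without Prlr+/- mouse 2 the median of the 9 was 0.028. With the β-cell list as a covariate it was 0.019, with 6 of the 9 above 0. The mean log2 value of that list was 0.31 higher in Prlr+/- islets (exact permutation p = 0.114).

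**Figure D2:**
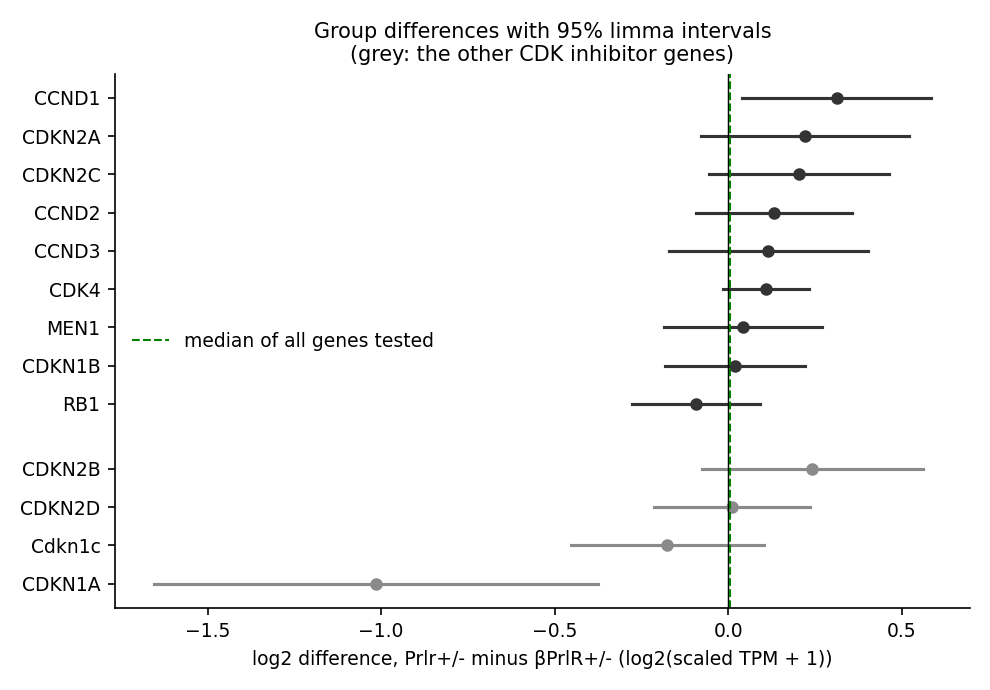
Log2 difference, Prlr+/- minus βPrlR+/-, of log2(scaled TPM + 1) with 95% limma intervals (lines) for the 9 genes tested, in black, and for the remaining CDK inhibitor genes, in grey. The CCND1 interval, 0.04 to 0.58, lies above 0, and among the grey genes CDKN1A lies below 0.

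The D cyclins are the regulatory partners of CDK4 and CDK6. CCND1, which many growth signals induce, was at 33.6, 31.2, 36.9 and 36.4 scaled TPM in βPrlR+/- islets and at 39.7, 52.1 and 38.6 in Prlr+/- islets. The groups did not overlap, and mouse 2 of the Prlr+/- group stood highest. Group means were 34.5 ± 2.66 (SD, n = 4) against 43.4 ± 7.50 (SD, n = 3), and the log2 difference was 0.31 (SE 0.12, limma p = 0.0298, adjusted p = 1.0, exact permutation p = 0.0286, the smallest that 35 splits can give). The unadjusted call was lost without Prlr+/- mouse 2 (0.18), without βPrlR+/- mouse 1 (0.30) and without βPrlR+/- mouse 2 (0.27). It was also lost with the β-cell list as a covariate (0.25) and with TPM as deposited (0.17), while the difference stayed above 0 in each of these.

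CCND2, the main D cyclin of mouse β-cells, was at 163, 149, 159 and 156 scaled TPM in βPrlR+/- islets and at 164, 200 and 154 in Prlr+/- islets. Its level was above that of 97.9% of the genes tested. The groups overlapped, with Prlr+/- mouse 2 again the highest (log2 difference 0.13, SE 0.096, 95% interval -0.09 to 0.36, limma p = 0.207, exact permutation p = 0.229). CCND3 was at 20.5, 18.8, 15.2 and 15.7 against 18.2, 21.6 and 17.3 scaled TPM, and these groups overlapped too (log2 difference 0.12, SE 0.12, limma p = 0.374, exact permutation p = 0.486). Without Prlr+/- mouse 2 the log2 differences were 0.026 for CCND2 and 0.028 for CCND3, and CCND2 was at 0.21 without Prlr+/- mouse 3 and at 0.019 with the β-cell covariate. Leaving out each mouse in turn gave 0.028 to 0.19 for CCND3, but with the β-cell covariate CCND3 was at -0.095. With TPM as deposited both genes were below 0 (CCND2, -0.012), a setting that moved the median over all genes to -0.12.

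Shares within a mouse do not depend on the scaling between mice. CCND2 supplied 75.1%, 74.9%, 75.3% and 75.0% of the D cyclin TPM in βPrlR+/- islets and 74.0%, 73.1% and 73.4% in Prlr+/- islets. The groups did not overlap, and the means differed by -1.56 percentage points (exact permutation p = 0.0286, adjusted p = 0.229 over 8 within-mouse measures). CCND1 supplied 15.5% to 19.0% and CCND3 7.22% to 9.43%. The CCND2 to CCND1 ratio was 4.29 to 4.85 in βPrlR+/- islets and 3.84 to 4.14 in Prlr+/- islets, without overlap (exact permutation p = 0.0857, adjusted p = 0.343). The remaining 6 measures, which set CCND2 against CCND3, CDKN1B, CDKN2C and MEN1, and CDK4 against CDK6 and CDKN2C, overlapped between the groups.

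**Figure D3:**
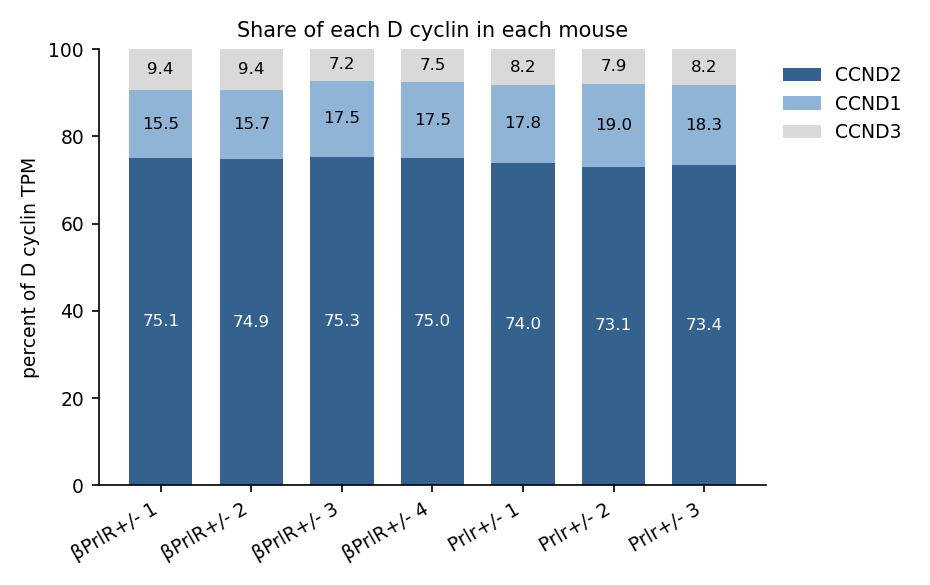
Percent of the summed D cyclin TPM supplied by CCND2, CCND1 and CCND3 in each of the 7 mice (stacked bars). CCND2 supplies 74.9% to 75.3% in βPrlR+/- islets and 73.1% to 74.0% in Prlr+/- islets.

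Of the kinases, CDK4 was at 80.3, 75.8, 75.5 and 80.1 scaled TPM in βPrlR+/- islets and at 85.2, 83.3 and 83.7 in Prlr+/- islets. Every Prlr+/- mouse was the higher, by a small margin. Mean levels were 77.9 ± 2.62 (SD, n = 4) against 84.0 ± 1.02 (SD, n = 3), with a log2 difference of 0.11 (SE 0.053, limma p = 0.0783, exact permutation p = 0.0286). CDK4 was also among the steadiest genes, with a coefficient of variation of 4.74% over the mice, lower than that of all but 6.89% of genes. With TPM as deposited the difference was -0.036 (exact permutation p = 0.514), a move close to the common shift of all genes, whose median was then -0.12, so CDK4 lay above the median of all genes under both scalings. The level of CDK4 ran against the neuron and glia list over the 7 mice (Pearson r = -0.911, exact permutation p = 0.00238, Spearman rho = -0.893, p = 0.0123), with an adjusted p of 0.193 over 81 pairs of gene and list. Without the 2 mice farthest from the median of the list, r was -0.831, and with values centred on the group means it was -0.689.

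CDK6, the other D cyclin kinase, was at 0.152, 0.0889, 0.163 and 0.131 scaled TPM in βPrlR+/- islets and at 0.114, 0.154 and 0.0991 in Prlr+/- islets. It was too low to be tested with limma, and the groups overlapped (exact permutation p = 0.629). Within a mouse CDK4 exceeded CDK6 by 462 to 853 times, with a median of 614.

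Among the inhibitors, CDKN1B was at 32.7, 28.7, 25.9 and 31.1 scaled TPM in βPrlR+/- islets and at 30.02, 31.3 and 28.5 in Prlr+/- islets. The groups lay within each other (log2 difference 0.02, SE 0.086, 95% interval of the fold 0.882 to 1.17), and the sign changed between settings. CDKN2C, which encodes p18INK4c, was at 9.51, 9.12, 6.95 and 8.09 against 9.95, 8.87 and 10.6 scaled TPM, with overlap (log2 difference 0.20, SE 0.11, limma p = 0.107, exact permutation p = 0.171). CDKN2A, whose products are p16INK4a and p19ARF, was at 0.898, 0.908, 0.428 and 0.642 against 1.03, 0.819 and 1.13 scaled TPM, also with overlap (log2 difference 0.22, SE 0.13, limma p = 0.127, exact permutation p = 0.171). Without βPrlR+/- mouse 3 the log2 differences were 0.12 for CDKN2C and 0.13 for CDKN2A. With TPM as deposited CDKN2C was at 0.072, and with a pseudocount of 0.1 CDKN2A was at 0.45.

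These INK4 genes kept the same order of mice almost throughout. βPrlR+/- mouse 3 was the lowest for both, followed by βPrlR+/- mouse 4, and Prlr+/- mice 3 and 1 were the highest. Over the 7 mice, Pearson r between CDKN2A and CDKN2C was 0.994 (exact permutation p = 0.000397, adjusted p = 0.0143) and Spearman rho was 0.964 (p = 0.00278, adjusted p = 0.1). It was the only one of 36 pairs among the 9 genes to pass an adjusted p of 0.05 by r, and none passed by rho. Without the 2 mice farthest from the median of CDKN2C, r was 0.976, and leaving out each mouse in turn gave 0.985 to 0.998. With values centred on the group means r was 0.991, and with TPM as deposited it was 0.9746, where the adjusted p was 0.0643. CDKN2A was at most 1.13 scaled TPM in any mouse, and the deposited values keep no reads per gene, so the counting error behind its values is not given.

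**Figure D4:**
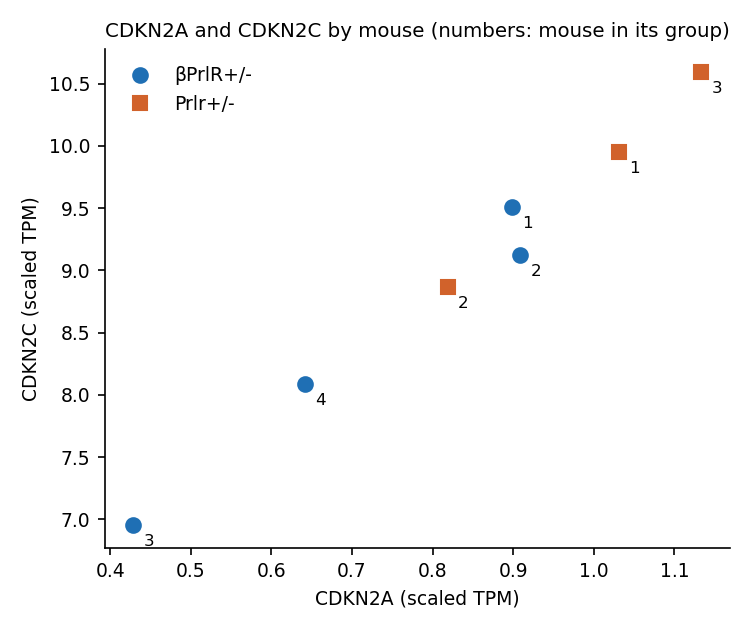
CDKN2A against CDKN2C, both in scaled TPM, in each mouse (circles, βPrlR+/-; squares, Prlr+/-; numbers name the mouse in its group). The points run from mouse 3 of the βPrlR+/- group, at 0.428 and 6.95, to mouse 3 of the Prlr+/- group, at 1.13 and 10.6.

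By transcript, the CDKN2A signal was assigned almost wholly to the p19ARF start printed above. NM_009877, the p19ARF transcript, held 78.0% of the gene in Prlr+/- mouse 1 and 100% in the other 6 mice. NM_001040654, the p16INK4a transcript, was listed at 0 in 6 of 7 mice and at 0.227 scaled TPM in Prlr+/- mouse 1. These transcripts share all but their first exons, so the division between them is an estimate. For CDKN2C, NM_007671 held 67.8% to 89.3% of the gene and NM_001301368 the remaining 10.7% to 32.2%. In CCND2 XM_006505460 held 77.9% on average and NM_009829 21.6%. For CDK4, NM_009870 held 85.9%. In MEN1 NM_001168489 held 69.1% and NM_008583 23.3%, and in RB1 NM_009029 held 98.0%. Of the 24 member transcripts tested none passed the adjusted threshold (all transcripts, 0.0135%) and 1 passed at an unadjusted p under 0.05 (all transcripts, 4.13%). That transcript was NM_007631 of CCND1, with a log2 difference of 0.30 (SE 0.11, limma p = 0.0305, exact permutation p = 0.0286).

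MEN1, the menin gene, was at 21.1, 21.9, 17.0 and 20.2 scaled TPM in βPrlR+/- islets and at 18.9, 21.7 and 21.3 in Prlr+/- islets. The groups overlapped (log2 difference 0.04, SE 0.097, 95% interval of the fold 0.880 to 1.21), and the sign changed between settings. RB1, the substrate of the D cyclin kinases, was at 9.05, 10.03, 10.6 and 9.65 against 8.48, 8.94 and 10.1 scaled TPM. It was the only one of the 9 with a difference below 0 (log2 difference -0.09, SE 0.079, limma p = 0.272, exact permutation p = 0.229), and its groups overlapped. The difference ranged from -0.16 without Prlr+/- mouse 3 to -0.044 without Prlr+/- mouse 1, was -0.061 without βPrlR+/- mouse 3, and was -0.23 with TPM as deposited and -0.041 with the β-cell covariate. The genes whose levels followed MEN1 most closely over the 7 mice were KDELR1 (r = 0.994), SPNS1 (0.974), AURKA (0.972), PRKCSH (0.969) and LOC102638888 (0.965), and 82 of 14839 genes had r above 0.9. For CCND2 they were SHC4 (r = 0.993), ZFYVE16 (0.987), CEBPZ (0.985), 4931431B13Rik (0.982) and HSPA4L (0.982), and 272 genes had r above 0.9.

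The high D cyclin values of Prlr+/- mouse 2 came with high values of other genes, which were chosen after their values were seen. This mouse was the highest of the 7 for CCND1, CCND2 and CCND3, and for 14 of the 21 tested genes of the S phase and mitosis list (66.7%, against 23.2% of all genes tested). MKI67, a proliferation marker, was at 1.46 scaled TPM there and at 0.154 to 0.976 in the other mice. TPH1, the serotonin-synthesis enzyme that prolactin signalling induces in pregnant islets, was at 24.6 against 2.77 to 10.2. CISH, a STAT5 target, was at 60.5 against 36.3 to 47.7. The upstream list as a whole did not share this pattern: the mouse was the highest for 3 of its 21 tested genes (14.3%), and it was the lowest for STAT5A, at 3.63. Prlr+/- mouse 2 was also the lowest of the 7 for 21.3% of all genes tested. Its mean log2 value of the β-cell list was the highest, at 9.11 against 8.48 to 8.98. The relation of CCND1 to CCND2 rested on Prlr+/- mouse 2 and βPrlR+/- mouse 2, the highest and the lowest for both genes: r was 0.9001 over the 7 mice (exact permutation p = 0.0238, adjusted p = 0.390, rho = 0.679, p = 0.110) and -0.166 without these 2 mice, the farthest from the median of CCND2. At the other end, βPrlR+/- mouse 3 was the lowest for 6 of the 10 genes (all genes, 17.6%), and it had the lowest share of insulin TPM, 46.1%.

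**Figure D5:**
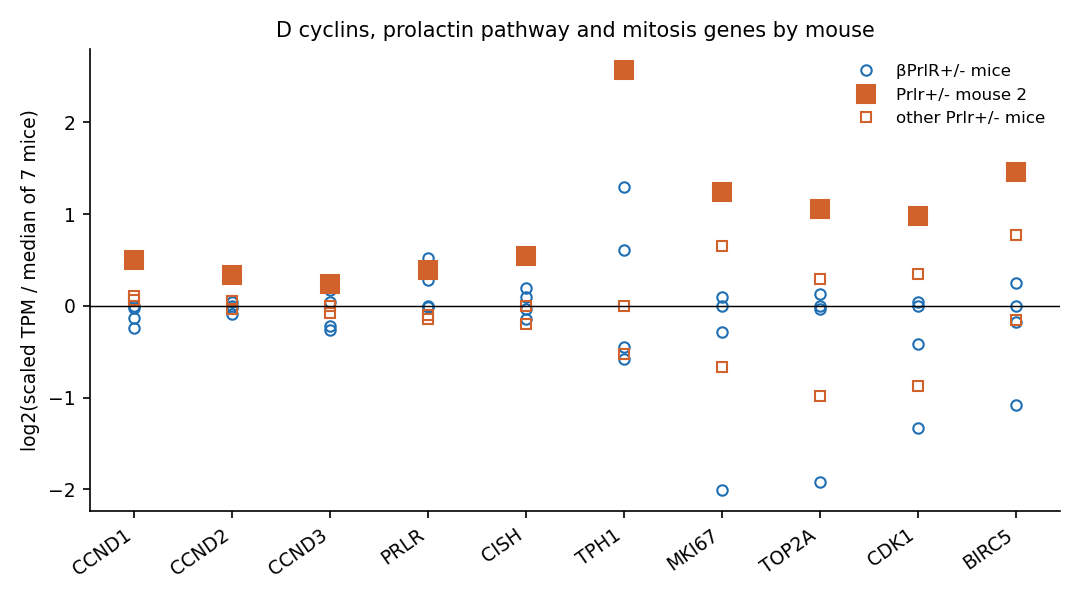
Log2 of scaled TPM over the median of the 7 mice for the D cyclins, prolactin pathway genes and mitosis genes (circles, βPrlR+/-; squares, Prlr+/-; filled square, Prlr+/- mouse 2). Prlr+/- mouse 2 is the highest for every gene shown except PRLR, where βPrlR+/- mouse 1 is higher at 55.7 scaled TPM. The prolactin pathway and mitosis genes shown were chosen after their values were seen. In the upstream list, Prlr+/- mouse 2 was the highest for 3 of 21 tested genes.

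Of the wider G1/S machinery list, 29 of 31 genes were tested, 15 with a difference above 0 and 14 below, and the median was 0.0081. None passed the adjusted threshold, and only CDKN1A passed at an unadjusted p under 0.05 (lower in Prlr+/- mice, as for 2.94% of all genes). CDKN1A encodes p21, a CDK inhibitor that p53 induces. It was at 38.0, 60.7, 34.8 and 61.6 scaled TPM in βPrlR+/- islets and at 18.2, 19.9 and 32.7 in Prlr+/- islets, without overlap, as for 3.11% of all genes in this direction (log2 difference -1.02, SE 0.27, limma p = 0.00681, adjusted p = 0.723, exact permutation p = 0.0571). With the β-cell list as a covariate the difference was -0.62 and the unadjusted call was lost.

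The p53 targets list, which includes CDKN1A, was lower in Prlr+/- mice in all 10 genes tested, with a median of -0.41, and 5 of the 10 had an unadjusted p under 0.05. That count was 8 with TPM as deposited and 2 with the β-cell list as a covariate. Of the 13 genes listed, 12 were found, and EDA2R and GTSE1 were too low to be tested. The study had already called PHLDA3, CCNG1 and EDA2R lower in Prlr+/- islets from these same libraries. The list was chosen with earlier results of these data known, so its counts are a description. Of all genes tested, 51.7% had a difference above 0, 2.94% were lower at an unadjusted p under 0.05, and 0.0674% passed the adjusted threshold. PHLDA3, a p53-induced repressor of Akt, was at 5.78, 5.22, 4.24 and 6.25 scaled TPM against 1.55, 1.57 and 1.84, and it alone fell by the adjusted test (log2 difference -1.25, SE 0.12, limma adjusted p = 0.0242). The log2 difference of PHLDA3 stayed between -1.63 and -1.19 in every setting in which it was tested, while its adjusted p ranged from 0.00815 to 0.464. The adjusted call was lost with either covariate, over all genes above 0, and on leaving out any 1 mouse except βPrlR+/- mouse 3. CCNG1, the gene of cyclin G1, was at 42.3, 46.5, 37.9 and 48.7 against 25.8, 25.5 and 28.3 (log2 difference -0.70, limma adjusted p = 0.0933). BAX, a pro-apoptotic gene, was at 55.3, 48.2, 47.6 and 58.7 against 42.4, 38.5 and 44.5 (log2 difference -0.32, limma adjusted p = 0.836). Tamoxifen and Cre were present in the βPrlR+/- mice alone, so their part cannot be told apart from that of the genotype.

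The 8 genes of the menin complex list were all tested, 6 with a difference above 0 and 2 below, and none passed at an unadjusted p under 0.05 (all genes, 51.7% above 0 and 4.52% past that threshold). The list of genes upstream of G1 in pregnancy, from PRLR and STAT5 to the Polycomb genes that control the INK4 locus, had 21 of 25 genes tested, 10 above 0 and 11 below. Only TPH2, a serotonin-synthesis enzyme, passed at an unadjusted p under 0.05, which is 4.76% of the genes tested and near the share over all genes. It was at 5.62, 5.82, 5.38 and 6.10 scaled TPM against 8.52, 7.06 and 6.00, with overlap (log2 difference 0.27, SE 0.11, limma adjusted p = 1.0). The difference was 0.16 without Prlr+/- mouse 1 and 0.15 with TPM as deposited. The unadjusted call was lost in both of these, with upper-quartile scaling, with the β-cell covariate, and on leaving out any other mouse except βPrlR+/- mouse 4 and Prlr+/- mouse 3. In the S phase and mitosis list 15 of 21 tested genes were above 0 and 6 below, the median was 0.11, and none passed at an unadjusted p under 0.05.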

How the data were processed

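The authors prepared directional libraries from islet poly(A) RNA and quantified RefSeq transcripts with kallisto 0.42.4. The study's methods call the deposited values FPKM, but each mouse sums to 1000000, so the values deposited by the authors were treated as TPM. Gene values are sums over transcripts. The study gives a range of reads over its samples, and TPM keeps no reads per gene, so no counting intervals are given. Precision rests on the spread between mice, of which there were 4 and 3.

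A size factor from median ratios was applied to each mouse (scaled TPM), and values were analysed as log2(scaled TPM + 1), so that fold changes of low genes are understated. Genes with a mean of at least 0.5 TPM (transcripts, 0.1) were tested with limma 3.58.1 (trend, R 4.3.3) with Benjamini-Hochberg adjustment over all of them and a threshold of 0.05. Single values were tested with two-sided exact permutation over 35 splits, and correlations over 5040 pairings (scipy 1.17.1).

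The 10 genes and all lists were chosen with earlier results of these data known. Named from the lists were genes with an unadjusted p under 0.05, at most 4 a list by smallest p, and, for CCND2 and MEN1, the 5 genes with the highest r. Others are named as chosen afterwards. Alternatives changed the scaling, pseudocount, filter, variance model, covariates and mice. Promoter windows came from RefSeq for GRCm38.p6. No window was used for Ccnd1, Ccnd2 or Rb1.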

Additional observations from a re-analysis of the deposited data

Results flagged for a closer look

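In groups of 4 βPrlR+/- mice, 43 sets of values of the genes, their transcripts and their within-mouse measures were checked for 1 mouse far from the others (Dixon's test), and 3 stood out. Chance marks about 1 in 20 groups. All were minor transcripts. XM_011241977.1 of CCND1 was low in mouse 2, at 0.602 scaled TPM. XM_006523552.1 of CCND3 was high in mouse 3, at 1.13 scaled TPM, and near 0 in the other 3 mice. NM_001168488.1 of MEN1 was high in mouse 4, at 1.45 scaled TPM.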

How the results depend on the processing

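No paired analysis was possible because the labels give the groups no shared replicate numbers. With TPM as deposited the log2 difference turned negative for CCND2 (-0.012), CCND3 (-0.022), CDK4 (-0.036), CDKN1B (-0.12) and MEN1 (-0.096), and only 3 of the 9 genes were above 0. That setting shifts all genes together, to a median of -0.12 from 0.0042. In the exact permutation tests on those values the difference in mean TPM was 5.08 for CCND1 (p = 0.486), -0.18 for CCND3, -1.99 for CDK4, -2.50 for CDKN1B and -1.43 for MEN1. CDKN1B was -0.011 with upper-quartile scaling and, with the β-cell list as a covariate, -0.055, where CCND3 was -0.095. Leaving out each mouse in turn gave -0.042 to 0.068 for CDKN1B and -0.033 to 0.10 for MEN1 on the log2 scale, -0.918 to 1.37 and -0.475 to 1.46 in scaled TPM, and -0.049 to 0.082 for CCND2/CCND3 and -0.27 to 0.042 for CCND2/CDKN2C. The cause of the changes on leaving out mice or adding a covariate was not tested.

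Over all genes the adjusted calls numbered 10, and 18 with a pseudocount of 0.1, 4 over all genes above 0, 6 with a mean of at least 5 TPM, 6 with the acinar list and 2 with the β-cell list as a covariate, and 2 to 13 leaving out each mouse. Unadjusted calls numbered 671, and 1177 with TPM as deposited, 1330 over all genes above 0, 274 with a mean of at least 5 TPM and 496 to 1078 leaving out each mouse; the last filters change how many genes are tested. Of the 9 genes, 1 passed unadjusted, and 0 with TPM as deposited or the β-cell covariate, 2 over all genes above 0 and 0 to 1 leaving out each mouse. For the G1/S machinery list the unadjusted count was 1, and 2 with TPM as deposited, 0 with the β-cell covariate and 1 to 2 leaving out each mouse. The menin complex list gave 1 with TPM as deposited in place of 0. The upstream list gave 0 with TPM as deposited or upper-quartile scaling and 0 to 2 leaving out each mouse, in place of 1, and the S phase and mitosis list 1 with the acinar covariate and 0 to 4, in place of 0. Adjusted calls in the p53 targets list, 1 in the report, were 2 with TPM as deposited, 0 over all genes above 0 and with either covariate, 0 with a mean of at least 5 TPM, where PHLDA3 is too low to be tested, and 0 to 2 leaving out each mouse, and its unadjusted count, 5, was 8 with TPM as deposited and 2 with the β-cell covariate. No pair of genes passed the adjusted threshold for correlation with TPM as deposited (0 of 36, smallest adjusted p = 0.0643). Of all values recomputed, 539 kept their direction and side of the threshold or moved little. Of the others, 47 moved further, 23 changed sign, 10 lost a call and 2 gained one. A call rested on the adjusted p in limma tests. It rested on the unadjusted p in exact permutation tests, within-mouse measures and the correlation of CDKN2A with CDKN2C. With a mouse left out, permutation tests and within-mouse measures were judged by direction alone. Lost unadjusted limma calls, such as those of CCND1, CDKN1A and TPH2, are not counted in the 10. The exact permutation call of CCND1, lost with TPM as deposited (p = 0.486), is counted. The CDKN2A and CDKN2C correlation with each mouse left out, and a filter of transcripts at a mean of 0.5 TPM, were chosen after seeing the data.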

Other observations

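CDKN2B and CDKN2D, the remaining INK4 genes, were looked at after the values of CDKN2A and CDKN2C were seen, so the following is a description. CDKN2B, the neighbour of CDKN2A that encodes p15INK4b, was at 6.598, 5.13, 4.22 and 4.58 scaled TPM in βPrlR+/- islets and at 6.19, 5.55 and 6.86 in Prlr+/- islets. Like CDKN2A and CDKN2C, it was lowest in βPrlR+/- mouse 3 and highest in Prlr+/- mouse 3. Its Pearson r over the 7 mice was 0.933 with CDKN2C and 0.899 with CDKN2A. CDKN2D, which encodes p19INK4d, was at 9.94, 8.70, 7.46 and 9.07 against 8.53, 8.43 and 9.55, with r of 0.717 and 0.669. Only 1 of 14839 genes had a higher r with CDKN2C than CDKN2A did, and 227 of them had r above 0.9 with CDKN2C.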
